A study of Sus scrofa with 6 samples.

Results

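The genes described here encode subunits of the mitochondrial oxidative phosphorylation system, measured in the left atria of pigs with and without mitral regurgitation. The rule that picks them uses the gene symbol and no measured value, although it was proposed with earlier results of these data known. It takes every symbol starting with NDUF, UQCR, COX4, COX5, COX6, COX7, COX8 or ATP5, together with SDHA, SDHB, SDHC, SDHD, CYC1 and CYCS. The rule found 81 probe sets for 64 genes, of 6765 genes that the array annotation names by a single symbol. Each gene was represented by its probe set with the highest mean over the 6 arrays, and all 64 passed the filter on dim probe sets.

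In all, 6 samples of left atrial RNA, from male Lanyu miniature pigs 18 months old, were hybridised to a porcine Affymetrix array, with 1 animal per array and n = 2 per group. Normal controls (NC) had no recorded operation. Animals with mitral regurgitation (MR), in which the valve leaks back into the atrium, carried a surgical hole of 2.8 mm in the posterior mitral leaflet, and the atria were taken 12 months after surgery. Animals of the third group (MRV) had the same lesion and also received valsartan, an angiotensin receptor blocker, at 3.43 mg/kg/day starting 1 week ahead of the operation. A comparison with NC cannot separate regurgitation from the operation, and the 2 arrays of a group hold animal and technical spread together. Replicates are written as NC1, NC2 and so on.

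Oxidative phosphorylation makes most of the ATP that a beating heart cell uses. Complex I takes electrons from NADH and complex II takes them from succinate. Ubiquinone passes the electrons to complex III, and cytochrome c carries them on to complex IV, which reduces oxygen to water. Complexes I, III and IV pump protons across the inner mitochondrial membrane, and ATP synthase lets the protons return while it forms ATP. Most subunits are encoded in the nucleus, and the nuclear genes are those measured here.

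By complex, the genes were 32 subunits of complex I, 3 assembly factors of complex I (NDUFAF1, NDUFAF2, NDUFAF3), 4 subunits of complex II, 2 of complex III, cytochrome c (CYCS), 8 of complex IV, 13 of ATP synthase, and ATP5S, the coupling factor B that is linked to ATP synthase. NDUFA4 was counted with complex IV, where its protein is now placed, although its symbol is that of a complex I gene. The symbols are those of the array annotation and some are old, such as ATP5A1 for the alpha subunit of ATP synthase. Among the genes not analysed here were UQCRC1, UQCRC2, UQCRFS1, CYC1, COX4I1 and COX5A. Complex III is therefore represented by the small subunit genes UQCR10 and UQCRB alone.

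Values are linear intensities in arbitrary array units, as the authors normalized them. Differences between groups are log2 differences of intensity + 16, with moderated standard errors (SE) from limma, and a gene is called where its Benjamini-Hochberg adjusted p is below 0.05. Array medians lay between 90.2 and 93.4. Gene means ranged from 117 (NDUFV3) to 14345 (NDUFA4), and 58 of the 64 exceeded 1000. Levels of different genes are not set against each other, since probe sets differ in brightness for the same amount of RNA. In these bulk samples, fewer cells of a type and less RNA per cell cannot be told apart.

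No oxidative phosphorylation gene was called in any comparison. In MR minus NC, 0 of 64 passed the limma threshold in either direction, against 0% of all 5408 tested genes higher and 0.0185% lower. In MRV minus MR and in MRV minus NC, 0 of 64 passed, and 0% of all tested genes did so in either direction. By unadjusted limma p-values under 0.05, 1 gene (NDUFAF2) was higher and 0 lower in MR than in NC, where 2.61% of all tested genes were higher and 1.89% lower. In MRV minus MR, 0 were higher and 3 lower (NDUFAF2, NDUFA7 and UQCR10), against 1.61% and 6.27% of all. In MRV minus NC, 0 were higher and 0 lower, against 1.18% and 4.44% of all. The differences were small. Between MR and NC, 56 of the 64 genes differed by less than 10%, between MRV and MR 50 did, and between MRV and NC 54 did.

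The median SE of a log2 difference was 0.11, so that a 95% interval extended 0.27 to either side of a typical gene's difference. Differences smaller than that could not be resolved with 2 arrays a group. In MR minus NC the interval included 0 for 63 of 64 genes, in MRV minus MR for 61 and in MRV minus NC for 64. By median, the 2 arrays of a group lay closer together for these genes than for all tested genes, and no test of this was made. Of the 64 genes, 58 had a mean above 1000, and they were not compared with genes of like brightness. The median difference between NC1 and NC2, regardless of sign, was 0.088 on the log2 scale against 0.17 over all tested genes. That between MR1 and MR2 was 0.060 against 0.13, and that between MRV1 and MRV2 was 0.071 against 0.12.

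**Figure D1:**
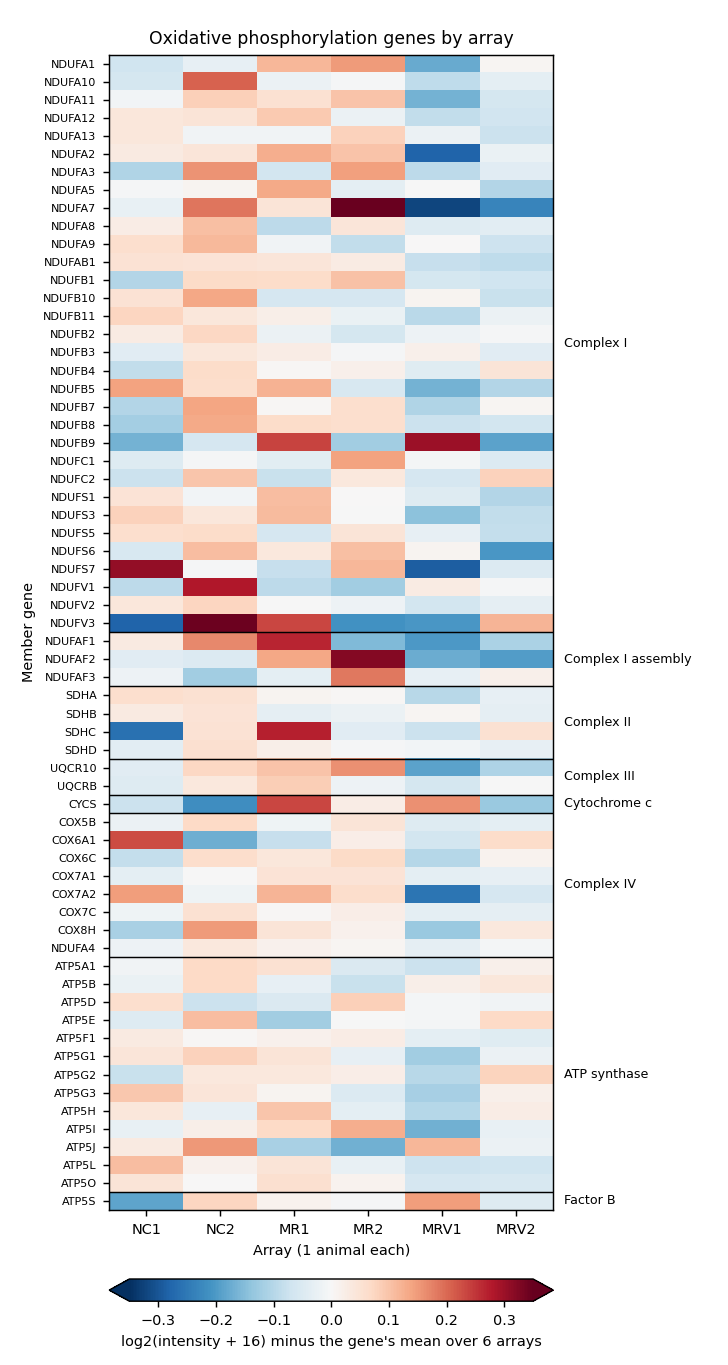
Each row is 1 of the 64 genes, grouped by complex, and each column is 1 array. Colour gives log2(intensity + 16) minus the gene's mean over the 6 arrays, with red above and blue below the mean. Most rows are pale and the MRV1 column is mostly blue, while rows such as NDUFA7, NDUFV3 and NDUFAF2 have strong colours.

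The comparison of MR with NC asked what regurgitation, with its operation, alters in atrial RNA. For the 64 genes it showed no common direction: 34 were higher and 30 lower in MR, where 52.6% and 47.4% of all tested genes were, with a median log2 difference of 0.0062 (0.429%) and a range from -0.23 to 0.28. The median over all tested genes was 0.0076. Arrays of the groups did not overlap for 7 genes higher in MR, where 15.7% of all tested genes were of this kind, and for 12 genes lower in MR, where 12.4% were. These 7 and 12 genes make 10.9% and 18.8% of the 64. The 7 with higher values were NDUFA1, NDUFA2, NDUFAF2, UQCR10, CYCS, COX7A1 and ATP5I. Each of the 64 adjusted limma p-values in MR minus NC rounded to 1. The sign of the median depended on the scaling: it was -0.019 with quantile normalization (37 genes lower) and -0.012 with cyclic loess (35 lower), and 0.0097 with median centring (29 lower). It also depended on single arrays. Without NC1 the median was -0.027 against 0.035 over all tested genes, and 33 of the 64 (51.6%) were lower without overlap against 26.8% of all. Without MR1 it was -0.0073 against 0.027, with 22 (34.4%) against 24.9%. Without NC2 it was 0.029 against -0.021, with 18 (28.1%) against 38.7%.

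Complex I, the NADH dehydrogenase and largest complex of the chain, was balanced between MR and NC, with 16 subunits higher, 16 lower and a median of 0.0022. Its core subunits hold the flavin and the iron-sulfur clusters. NDUFV1, which binds NADH and the flavin, read 2015 and 2613 (NC), 2017 and 1975 (MR) and 2194 and 2143 (MRV). NC2 stood alone at the high end and NC1 lay among the MR arrays, and the log2 difference between MR and NC of -0.20 (SE 0.15) was the lowest of the complex. NDUFS1, the largest iron-sulfur subunit, read 2951 and 2836 (NC), 3075 and 2858 (MR) and 2767 and 2655 (MRV).

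NDUFA1, a small accessory subunit of the membrane arm, read 6257 and 6441 (NC), 7126 and 7291 (MR) and 5817 and 6608 (MRV). Both MR arrays exceeded all others. Between MR and NC it differed by 0.18 on the log2 scale (SE 0.11, limma adjusted p = 1), the highest value of the complex. NDUFB10, a membrane arm subunit, read 2069 and 2195 (NC), 1918.3 and 1918.2 (MR) and 2012 and 1894 (MRV). The groups NC and MR did not overlap for it (log2 difference -0.15, SE 0.10, limma adjusted p = 1).

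NDUFV3, a small accessory subunit beside the flavin site and the dimmest of the 64 probe sets, read 91.9 and 150.2 (NC), 138.3 and 97.2 (MR) and 97.8 and 126.4 (MRV). Its arrays overlapped in every comparison, and its SE of 0.26 was the widest of the 64 genes. NDUFB9, a subunit of the membrane arm, also varied within groups. It read 4251 and 4575 (NC), 5617 and 4383 (MR) and 5871 and 4186 (MRV), so that 1 animal of each operated group was high and the other lay at the control level. The group means ± SD (n = 2 each) were 4413 ± 230 in NC, 5000 ± 873 in MR and 5028 ± 1192 in MRV. Its log2 differences of 0.17 in MR minus NC and 0.17 in MRV minus NC were smaller than their SE of 0.20.

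Among the assembly factors, NDUFAF2 had the widest differences in MR minus NC and in MRV minus MR, and NDUFAF1 in MRV minus NC (-0.26, against -0.14 for NDUFAF2). The NDUFAF2 protein is a chaperone of late complex I assembly related to the subunit NDUFA12. The NDUFAF2 probe set read 175.1 and 173.9 (NC), 199.8 and 229.4 (MR) and 158 and 155.3 (MRV). MR was above NC and NC was above MRV with no overlap at either step. The log2 differences were 0.27 in MR minus NC (SE 0.11, limma adjusted p = 1) and -0.41 in MRV minus MR (SE 0.11, limma adjusted p = 0.569). Both comparisons use the same MR arrays. Its probe set name carries the Affymetrix suffix for probes that match more than 1 transcript, and the gene's other probe set was below the filter. NDUFAF1, which helps build the membrane arm, read 124.0 and 137.9 (NC), 148.6 and 107.1 (MR) and 103.1 and 110.8 (MRV). NDUFAF3, a factor for the ubiquinone-binding module, read 484.1 and 448.9, 478.1 and 558.6, and 480.3 and 495.7 in the same order. A further NDUFAF1 probe set of similar brightness gave 0.034 in MRV minus NC, against -0.26 for the probe set used. Between MRV and MR it gave -0.017 against -0.21.

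Complex II, succinate dehydrogenase, is shared by the respiratory chain and the citric acid cycle. SDHA, its flavoprotein, read 5763 and 5733 (NC), 5568 and 5542 (MR) and 5169 and 5421 (MRV). The order NC, MR, MRV held without overlap, yet the log2 differences were only -0.049 in MR minus NC and -0.12 in MRV minus NC (SE 0.098, limma adjusted p = 0.909 for MRV minus NC). A further SDHA probe set gave -0.045 and -0.087, without that order. It read 2373 and 2388 (NC), 2490 and 2136 (MR) and 2126 and 2361 (MRV), so that MR overlapped with both other groups. SDHB, the iron-sulfur subunit, read 7162 and 7234 (NC), 6846 and 6903 (MR) and 7035 and 6846 (MRV). Of the membrane anchors, SDHC read 934.9 and 1164 (NC), 1359 and 1092 (MR) and 1066 and 1166 (MRV), with overlap in every comparison. SDHD lay between 4471 and 4762 on all 6 arrays.

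Of the complex III genes, UQCR10, one of the smallest subunits, read 6846 and 7390 (NC), 7535 and 7863 (MR) and 6175 and 6527 (MRV). MR was above NC and MRV was below both, without overlap. The log2 differences were 0.11 in MR minus NC (SE 0.11, limma adjusted p = 1) and -0.28 in MRV minus MR (SE 0.11, limma adjusted p = 0.668). UQCRB, a subunit next to the ubiquinone site, lay between 6693 and 7420 with overlap throughout.

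CYCS, the mobile electron carrier cytochrome c, had the highest log2 difference between MR and NC among the 64 genes, at 0.28 (SE 0.15, limma adjusted p = 1). It read 3478 and 3150 (NC), 4307 and 3730 (MR) and 4096 and 3345 (MRV). MR exceeded NC without overlap, while the MRV arrays overlapped with both. CYCS was among 9 of the 64 genes whose difference between MRV and NC was above 0.

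Complex IV, cytochrome c oxidase, has subunits with forms for heart and skeletal muscle and forms for other tissues. COX7A1, the muscle form, read 8463 and 8668 (NC), 8970.9 and 8970.3 (MR) and 8476 and 8505 (MRV). COX7A2, the form of other tissues, read 4773 and 4267 (NC), 4682 and 4498 (MR) and 3606 and 4137 (MRV), where both MRV arrays lay below the other 4. The difference between MRV and MR was -0.079 (SE 0.096) for COX7A1 and -0.25 (SE 0.12, limma adjusted p = 0.738) for COX7A2. Whether these forms differ in their response was not tested. COX8H, the muscle form of the smallest subunit, read 6102 and 7319 (NC), 6812 and 6667 (MR) and 6031 and 6779 (MRV). COX6A1, the non-muscle form of another subunit, read 1297 in NC1 and from 980.7 to 1158 elsewhere. At the probe sets used, COX5B, COX6C, COX7C and NDUFA4 differed by log2 0.10 or less in size in each comparison. A further COX7C probe set, far dimmer with a mean of 89, gave -0.18 in MR minus NC and -0.30 in MRV minus MR. In MRV minus NC it gave -0.48 (SE 0.17, limma adjusted p = 0.904).

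ATP synthase consists of a catalytic head, a rotating stalk and membrane ring, and a fixed peripheral stalk. The catalytic beta subunit gene ATP5B read 8054 and 8587 (NC), 8023 and 7755 (MR) and 8309 and 8422 (MRV). The alpha subunit gene ATP5A1 read 11940 and 12618, 12477 and 11613, and 11415 and 12181 in the same order, with overlap throughout. Of the genes for the ring subunit c, ATP5G1 read 7991 and 8206 (NC), 8005 and 7601 (MR) and 7124 and 7646 (MRV). ATP5G3 read 9990 and 9643, 9424 and 9045, and 8626 and 9482, and ATP5G2 lay between 2739 and 3093 with overlap throughout. MRV1 held the lowest value for all 3 ring genes.

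ATP5J, which encodes coupling factor 6 of the peripheral stalk, had its lowest values in MR. It read 1865 and 2030 (NC), 1687 and 1621 (MR) and 1980 and 1800 (MRV). MR lay below both other groups without overlap, with log2 differences of -0.23 in MR minus NC (SE 0.11, limma adjusted p = 1) and 0.19 in MRV minus MR (SE 0.11, limma adjusted p = 0.76). These were the lowest and the highest values of the 64 genes in those comparisons. Among the membrane subunits, ATP5I (subunit e) read 2321 and 2400 (NC), 2483 and 2584 (MR) and 2101 and 2321 (MRV). ATP5L (subunit g) read 6550 and 6138, 6268 and 5967, and 5772 and 5783. Its other probe sets differed between MRV and NC by -0.15 and 0.42, against -0.13 for the probe set used, so that the direction for ATP5L depends on the probe set.

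**Figure D2:**
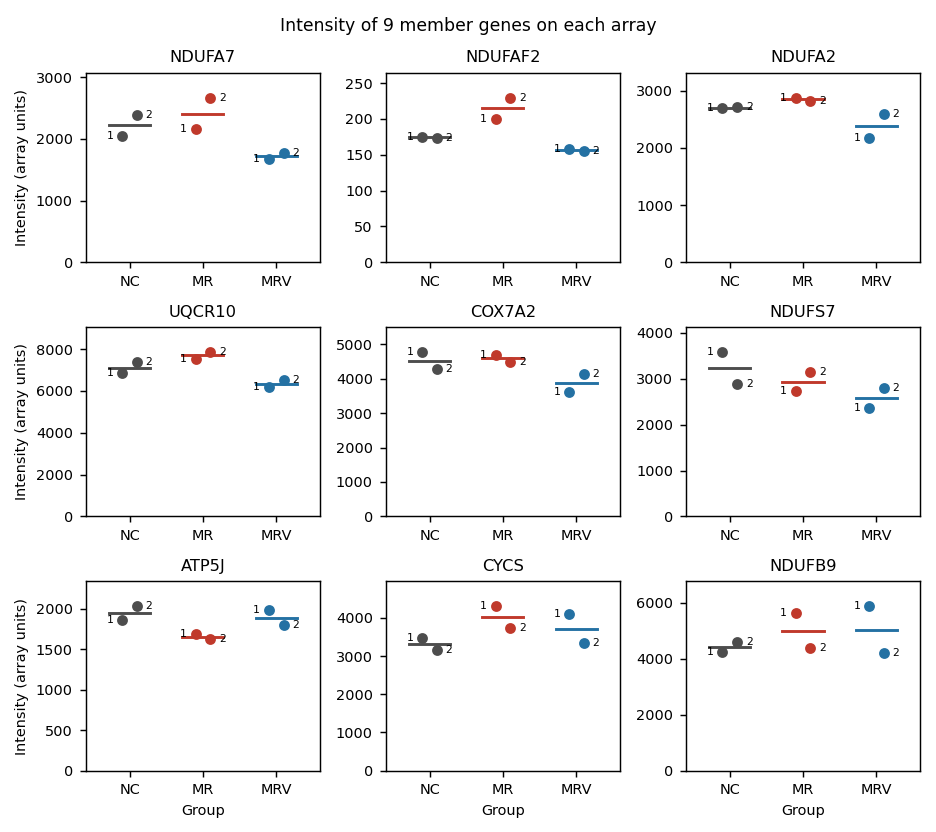
Intensity in array units for 9 genes in NC, MR and MRV, with 1 point per array numbered by replicate and a bar at the group mean. Axes start at 0. NDUFA7, NDUFAF2, NDUFA2, UQCR10 and COX7A2 have both MRV points below both MR points, ATP5J is lowest in MR, and NDUFB9 is high on MR1 and MRV1 alone.

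MRV and MR were compared to ask what the drug alters in regurgitant atria. Most of the 64 genes had lower values in MRV, 53 lower and 11 higher, where 57.6% of all tested genes were lower and 42.4% higher. The median log2 difference was -0.072, or -4.90%, against -0.031 over all tested genes, and the range ran from -0.47 to 0.19. For 29 genes, 45.3% of the 64, both MRV arrays were below both MR arrays, against 28.7% of all tested genes. For 4 genes (NDUFB2, NDUFV1, ATP5B and ATP5J), or 6.25%, both were above, against 15% of all.

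Values were lower in MRV for most genes of each complex, and for all 3 assembly factors. Over all tested genes, 57.6% were lower in MRV and 28.7% were lower without overlap. Of complex I, 27 of 32 subunits were lower in MRV with a median of -0.081, and 15 were lower without overlap. Complex II had 3 of 4 lower (median -0.049), complex III 2 of 2 (median -0.17), complex IV 7 of 8 (median -0.065) and ATP synthase 10 of 13 (median -0.038). For the catalytic head of ATP synthase, the differences were -0.030 for ATP5A1 and 0.085 for ATP5B.

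NDUFA7, an accessory subunit of the complex I matrix arm, had the lowest log2 difference, at -0.47 (SE 0.15, limma adjusted p = 0.62). It read 2053 and 2384 (NC), 2156 and 2664 (MR) and 1671 and 1778 (MRV), so that both MRV arrays were below all others. The 95% interval of its difference ran from -0.84 to -0.11. NDUFA2, a matrix arm subunit with a thioredoxin-like fold, read 2690 and 2707 (NC), 2872 and 2820 (MR) and 2164 and 2588 (MRV) (log2 difference between MRV and MR -0.26, SE 0.12, limma adjusted p = 0.709). NDUFAB1, the mitochondrial acyl carrier protein that also serves fatty acid synthesis, read 6811 and 6795, 6775 and 6708, and 6218 and 6177. Its MRV values were below all others with little spread, at a log2 difference from MR of -0.12 (SE 0.096).

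The size of this difference depended on the scaling of the arrays. Quantile normalization gave 43 of 64 genes lower in MRV than in MR, a median of -0.041 and 16 genes lower without overlap. Those 16 are 25% of the 64, against 25.4% of all tested genes under the same scaling. Cyclic loess normalization, added after the data had been seen, gave 47 genes lower, a median of -0.041 and 20 without overlap, or 31.2% against 25% of all. Median centring gave 52 lower, a median of -0.067 and 25 without overlap, or 39.1% against 27.4% of all. The direction of the median did not change under these 3 scalings.

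**Figure D3:**
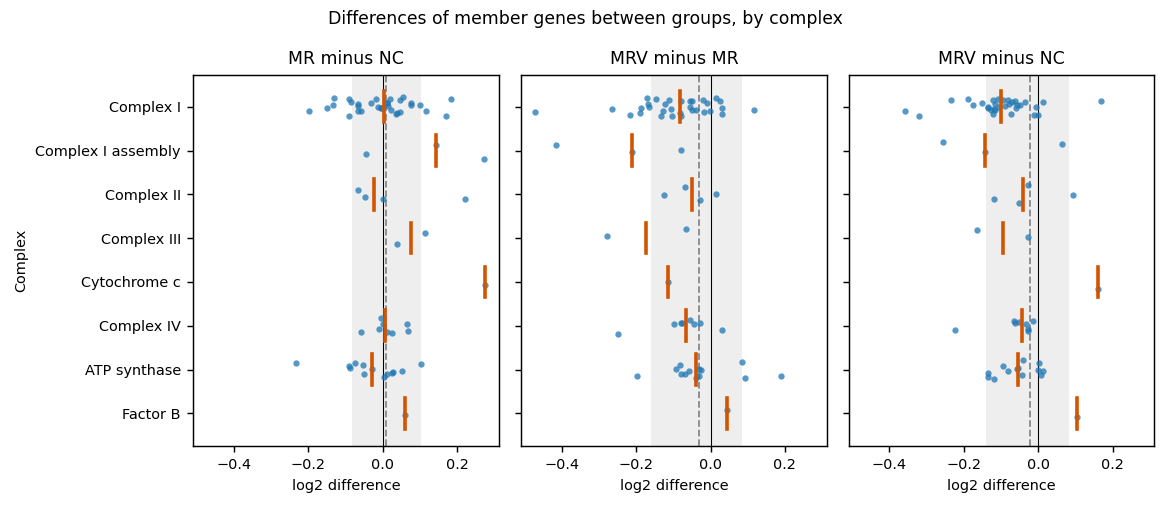
Log2 differences of the 64 genes in the 3 comparisons, with 1 point per gene, rows by complex and an orange bar at each row's median. The grey band is the interquartile range over all tested genes and the dashed line their median. In MR minus NC the complex I median is 0.0022, while in MRV minus MR it is -0.081 and in MRV minus NC -0.099, and single genes reach -0.47 (NDUFA7).

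MRV and NC were compared to ask what separates treated regurgitation from the normal atrium. This comparison shares the MRV arrays with one of the others and the NC arrays with the other. MRV was lower than NC for 55 of 64 genes and higher for 9, where 55.8% of all tested genes were lower and 44.2% higher, with a median of -0.067 (-4.51%) against -0.023 over all. No overlap was seen for 31 genes, 48.4% of the 64, all lower in MRV, against 21.8% of all tested genes lower without overlap. In the higher direction 0 genes were free of overlap, against 13.3% of all. With quantile normalization, 19 genes (29.7%) were lower without overlap against 19.6% of all, and with cyclic loess 24 (37.5%) against 19.6%. Complex I had 30 of 32 subunits lower with a median of -0.099, complex IV 8 of 8 with a median of -0.042, and ATP synthase 10 of 13 with a median of -0.055.

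The 6 genes with the smallest unadjusted p in this comparison were NDUFA7, NDUFB5, NDUFS7, COX7A2, NDUFS3 and NDUFAF1, with adjusted limma p-values from 0.904 to 0.906. NDUFA7 had a log2 difference of -0.36 (SE 0.15). NDUFS7, a core subunit with the iron-sulfur cluster next to ubiquinone, read 3582 and 2882 (NC), 2734 and 3139 (MR) and 2364 and 2798 (MRV). Its log2 difference of -0.32 (SE 0.16) came with NC1 as the highest array and MRV1 as the lowest. NDUFS3, a core subunit of the matrix arm, read 2933 and 2853 (NC), 2993 and 2773 (MR) and 2508 and 2613 (MRV), a log2 difference between MRV and NC of -0.18 (SE 0.10). The other NDUFS3 probe sets gave -0.28 (SE 0.25) and -0.19 (SE 0.11). The first of them overlapped between the groups, at 950.3 and 1028.7 (NC) and 1029.9 and 635 (MRV). In MRV minus MR it gave 0.19, against -0.17 for the probe set used and -0.24 for the third. NDUFB5 of the membrane arm read 4611 and 4358, 4544 and 4022, and 3725 and 3891, with both MRV arrays lowest.

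The counts without overlap varied with single arrays. MRV1 held the lowest of the 6 values for 30 of the 64 genes (46.9%), against 20.0% of all tested genes. NC2 held the highest for 27 (42.2%), against 11.6% of all. The median deviation of the 64 genes from their own means was 0.053 on NC2 and -0.016 on NC1. It was -0.062 on MRV1 and -0.033 on MRV2. Without NC2, the median of MRV minus NC was -0.043, less far below 0 than the -0.058 of all tested genes, and 34 genes (53.1%) were lower without overlap against 48.1% of all. Without NC1, the median was -0.10 against 0.0016 over all, and 54 genes (84.4%) were lower without overlap against 33.5%. Without MRV1, the median of MRV minus MR was -0.050 against -0.039 over all, and 37 genes (57.8%) were lower without overlap against 43.7%. The median of MRV minus NC was then -0.062 against -0.025 over all, and 36 genes (56.2%) were lower without overlap against 36.8%.

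**Figure D4:**
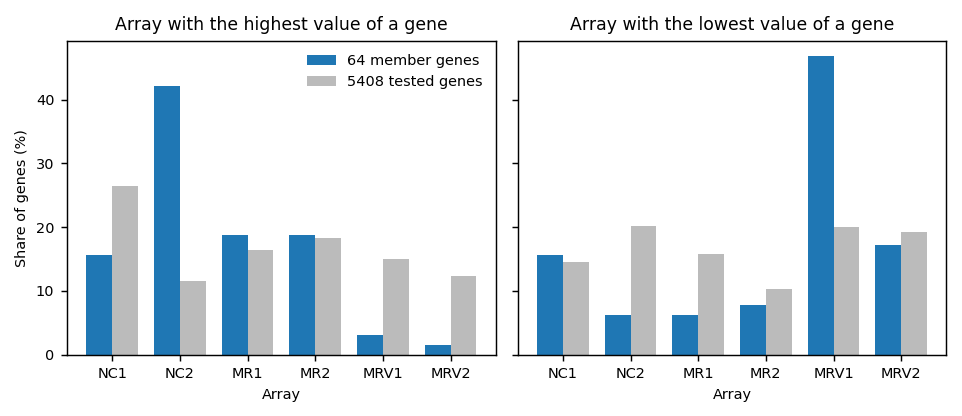
Share of genes, in percent, for which each array held the highest value (left) or the lowest value (right), for the 64 oxidative phosphorylation genes in blue and the 5408 tested genes in grey. NC2 reaches 42.2% among highest values and MRV1 46.9% among lowest values.

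Other measures also differed between the arrays. The 3'/5' ratio of the actin control probe sets is a measure of RNA integrity that goes up with degradation. It was 1.61 and 1.91 (NC), 1.44 and 1.70 (MR) and 2.30 and 1.87 (MRV). This ratio was highest on MRV1, and higher in MRV than in MR without overlap. The GAPDH 3'/5' ratio was 1.17 and 1.29 (NC), 1.24 and 1.34 (MR) and 1.30 and 1.23 (MRV). It was highest on MR2 and overlapped between MRV and MR. Fitting the actin ratio as a covariate was chosen after seeing the data. With it, the median of MRV minus MR was -0.069 and 0 genes were called, while NDUFS7 changed sign to 0.029. The 28S ribosomal RNA control read 117 and 468.4 (NC), 187.4 and 279.9 (MR) and 341 and 558.8 (MRV). Of 13 cardiomyocyte markers, 9 were measured, all bright enough to be tested, and 0 were called, and their summed intensity lay between 125611 and 131652 (NC), 130101 and 131915 (MR) and 127451 and 130113 (MRV). The 6 smooth muscle and pericyte markers summed to 7548 and 5859 (NC), 6340 and 6154 (MR) and 5327 and 5808 (MRV), and the 4 Schwann cell and neuron markers to 2006 and 2967, 3015 and 2767, and 1108 and 1811. The 4 ventricular or slow muscle markers summed to 29883 and 32958 (NC), 44745 and 37024 (MR) and 30192 and 30705 (MRV). The 3 erythroid markers summed to 440.1 and 468.8 (NC), 437.1 and 448.1 (MR) and 380.4 and 358.9 (MRV). These 4 sums, the actin ratio and the 28S signal separated MRV from MR without overlap. So did the 4 epicardium and mesothelium markers, too dim to be tested, which summed to 238.7 and 198.3 (MR) and 182.5 and 183.1 (MRV). The cardiomyocyte, fibroblast, endothelium, adipocyte and leukocyte sums overlapped between MRV and MR. What part any of these measures had in the differences above was not tested.

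Other mitochondrial gene lists were examined beside these genes. Of the mitochondrial ribosomal protein genes, which translate the subunits encoded in mitochondrial DNA, 46 of 57 tested were lower in MRV than in MR, with a median of -0.11, 26 without overlap and 0 called. Over all tested genes, 57.6% were lower in this comparison, 28.7% were lower without overlap and the median was -0.031, beside which each list here is to be read. Citric acid cycle and pyruvate dehydrogenase genes were lower for 12 of 16 (median -0.063), and assembly factors outside the 64 genes for 12 of 16 (median -0.077), with 0 called in each list. Carriers, porins and energy transfer genes were lower for 9 of 19 (median 0.0062), and regulators of mitochondrial biogenesis for 3 of 8 (median 0.072). Ubiquinone synthesis and electron donor genes were lower for 5 of 9 (median -0.084). No difference between lists was tested.

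**Figure D5:**
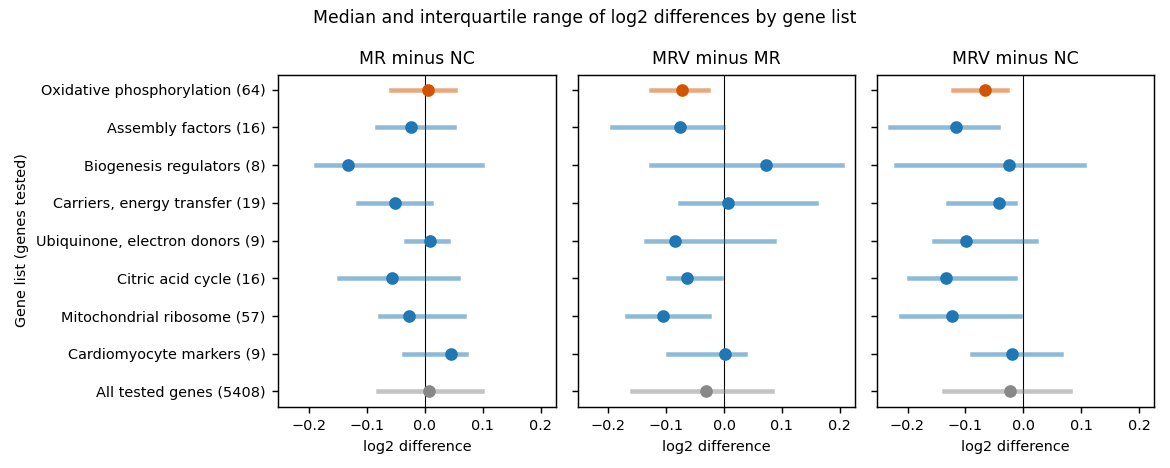
Median (point) and interquartile range (bar) of log2 differences for the oxidative phosphorylation genes in orange, 6 other mitochondrial lists and the cardiomyocyte markers in blue, and all tested genes in grey, with the number of tested genes in brackets. In MRV minus MR the oxidative phosphorylation median is -0.072, between those of the mitochondrial ribosome (-0.11) and the citric acid cycle (-0.063).

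Single genes of those lists were examined too, picked from those with the smallest unadjusted limma p in any comparison. They are extremes and do not stand for their lists. CKMT2, the mitochondrial creatine kinase of muscle that passes energy from new ATP to creatine, read 3016 and 3942 (NC), 4655 and 3685 (MR) and 2399 and 2588 (MRV). MRV was below both other groups without overlap, at a log2 difference from MR of -0.73 (SE 0.18, limma adjusted p = 0.531). IDH3A, the catalytic subunit of the NAD-dependent isocitrate dehydrogenase, read 2802 and 2719, 3194 and 2652, and 2036 and 2163 (log2 difference between MRV and MR -0.47, SE 0.13, limma adjusted p = 0.569). SLC25A5, an ADP/ATP carrier of the inner membrane, was lowest in MR, at 306.7 and 325.9 (NC), 185.1 and 233.6 (MR) and 275.5 and 289.2 (MRV). BCS1L, an assembly factor of complex III, read 239.2 and 259.6 (NC), 185.2 and 204.5 (MR) and 195.8 and 185.7 (MRV). In MR minus NC, the log2 difference of SLC25A5 was -0.57 (SE 0.14) and that of BCS1L was -0.33 (SE 0.11), both with limma adjusted p = 1.

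Probe sets of the same gene did not always give the same direction. Of 13 further tested probe sets for 10 of the 64 genes, 8 had the sign of the probe set used in MRV minus MR and 5 had the opposite sign. For NDUFV2, a core subunit with an iron-sulfur cluster, the probe set used gave -0.038 and the dimmer probe sets 0.27 and 0.14 in MRV minus MR. For NDUFB3 the other probe set, at a similar brightness, gave -0.065 against -0.020.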

How the data were processed

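The authors deposited an already normalized intensity for each probe set on each array. Both MAS5 and RMA appear in the submitters' processing notes, without a statement of which produced these numbers; their range shows a linear scale. Tests left out 124 control probe sets, and probe sets with a mean intensity below the 40th percentile (61.4) were not tested, which left 14400 of 23999. Symbols came from the platform annotation, and the Entrez IDs of all 64 genes matched the RefSeq table of assembly Sscrofa11.1, with 0 symbols changed. A probe set with several symbol entries (ATP5SL) was left out. No coordinates or sequences are given.

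Log2(intensity + 16) of all 6 arrays was fitted by group with limma 3.58.1 (R 4.3.3), with 3 residual and 2.78 prior degrees of freedom. P-values were adjusted over all tested probe sets per comparison; shares of all tested genes use 1 probe set per gene (5408). The number of arrays limits the precision. Tested on simulated data for MR minus NC on 14400 probe sets, with 200 changed, the fit recovered 56% of changes of log2 1 and 88.4% of log2 2 over 10 draws, with on average 6.2 false among 150.6 calls. These changes exceed every difference of the 64 genes (at most 0.47 in size), so recovery at their size was not measured. The simulated noise was independent between arrays, with spreads shuffled across probe sets.

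The genes named are, per comparison, any called, the 6 with the smallest p and the extremes of each complex, together with isoform and core genes; others are named to account for counts. The members and lists were chosen with earlier results of these data known. Alternatives covered pseudocount, filter, scaling, probe sets, variance model, replicate block and leaving out each array. The actin ratio and the 28S signal as covariates, and cyclic loess, were added after seeing the data.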

Additional observations from a re-analysis of the deposited data

How the results depend on the processing

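Across 18 alternatives, 0 of the 64 genes were called in any comparison, the replicate block included. The titles give each group replicates 1 and 2, but nothing says that a number marks a shared origin, and the correlations of same-numbered arrays' deviations were 0.34 (NC with MR), 0.20 (NC with MRV) and 0.019 (MR with MRV). With the replicate block the median was 0.0062 between MR and NC, -0.072 between MRV and MR, and -0.067 between MRV and NC, as without it. This was fixed in advance, since every group holds replicates 1 and 2. The block can change only the SE and the p-values, so the equal medians say nothing about pairing. With quantile normalization the median of MRV minus MR was -0.041. Without overlap, 16 genes (25%) were then lower in MRV than in MR, against 25.4% of all tested genes. In MRV minus NC 19 (29.7%) were lower against 19.6% of all, and 1 of 64 was higher against 15.6%. With median centring 7 genes (10.9%) were lower in MR than in NC without overlap, against 12.5% of all. Under the same centring, 1 of 64 was higher in MRV than in NC, against 14.2%. With cyclic loess, added later, 7 of 64 genes were higher in MRV than in MR without overlap, against 19.4% of all. For MRV minus NC, cyclic loess gave 2 of 64 higher, against 15.4%. With the 28S signal as a covariate, also added later, the median of MRV minus NC was -0.11 (-0.106).

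Leaving out each array in turn, which makes overlap less frequent, the median ranged from -0.027 to 0.029 in MR minus NC, from -0.087 to -0.050 in MRV minus MR, and from -0.10 to -0.043 in MRV minus NC. Of the 64 genes, those without overlap ranged from 7 to 30 higher and 12 to 33 lower in MR minus NC, where the share of all tested genes ranged from 15.7% to 42.7% and from 12.4% to 38.7%. They ranged from 4 to 10 higher and 29 to 43 lower in MRV minus MR (15% to 32.4% and 28.7% to 45.5% of all), and from 0 to 14 higher and 31 to 54 lower in MRV minus NC (13.3% to 34.6% and 21.8% to 48.1% of all). A group left with 1 array is assumed to vary like the others. Single-gene values under alternatives were compared only for 34 of the 64 genes, those with the smallest p, the extremes and the isoform and core genes. Of these 1836 values, 2 reversed a difference of at least 1 SE. They were NDUFS7 in MRV minus MR with the actin ratio as a covariate (0.029) and ATP5L in MRV minus NC with the mean of all its probe sets (0.047). For ATP5L, that mean takes in the dim probe set at 0.42 beside those at -0.13 and -0.15. The cause of the NDUFS7 change was not tested. A further 98 changed sign from smaller differences.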
